A study of Homo sapiens with 8 samples.

Results

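The claudins are a family of membrane proteins that form the strands of tight junctions, and 10 claudin genes were followed here on 4 arrays of LoVo and 4 arrays of GP5d. LoVo and GP5d are established human colorectal adenocarcinoma cell lines. LoVo was derived from a metastasis. Both were grown untreated on plastic in serum-containing medium, short of full confluency, and each array held the total RNA of 1 biological replicate. Each line stands for 1 tumour, so a difference between them is a difference between these lines. The 10 genes were listed by name as members of the family, with earlier results of these data known, and no value entered the rule. All 10 were found by Ensembl ID among the 19002 genes of the deposited table. They are CLDN1 (ENSG00000163347_at), CLDN2 (ENSG00000165376_at), CLDN3 (ENSG00000165215_at), CLDN4 (ENSG00000189143_at), CLDN6 (ENSG00000184697_at), CLDN7 (ENSG00000181885_at), CLDN10 (ENSG00000134873_at), CLDN12 (ENSG00000157224_at), CLDN15 (ENSG00000106404_at) and CLDN18 (ENSG00000066405_at). Other claudins were not analysed here.

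Claudins on neighbouring epithelial cells bind each other and decide which ions and small molecules can pass between the cells. Some are mainly sealing and raise the resistance of the epithelium, such as CLDN1, CLDN3, CLDN4, CLDN7 and the gastric claudin CLDN18. Others form channels: CLDN2 and CLDN15 let small cations and water through, and CLDN10 has splice forms for either cations or anions. Intestinal crypt cells and inflamed or neoplastic colon are known for CLDN2, while CLDN3, CLDN4 and CLDN7 are widespread in colonic epithelium. CLDN6 is mostly a gene of embryonic epithelium and pluripotent cells, and CLDN12 is an atypical claudin that lacks the usual C-terminal motif for binding scaffold proteins.

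The 8 arrays had close medians, between 3.05 and 3.11 on the log2 scale. Such medians lie near the low values and say little about the scale of highly expressed genes. LoVo replicate 3 stood apart from its line. Its correlations across genes with the rest of its line were 0.989 to 0.991. They were 0.996 to 0.997 among those 3 arrays and 0.997 to 0.998 among the GP5d arrays. Correlations between the lines were 0.947 to 0.953. The genes behind each correlation are not independent, and the values serve only to describe the arrays. The RNA is that of whole cultures, so fewer cells expressing a gene and less RNA per cell cannot be told apart. The identity of the cells was not checked, since markers of cell type were not analysed here.

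Of the 10 claudins, 3 had an estimated difference of at least 2-fold between the lines. CLDN2 and CLDN4 were higher in LoVo, by 3.52-fold and 2.43-fold, and CLDN3 was lower in LoVo, with GP5d 2.52-fold higher. CLDN12 was also lower in LoVo, by less than 2-fold, and CLDN1 and CLDN7 were slightly higher in LoVo. Whether CLDN1 and CLDN7 passed the test depended on the arrays and settings used, and the GP5d values of CLDN1 were in a low, unreliable range. The other 4 claudins did not pass the test. A gene was called where limma's p was under 0.05 after Benjamini-Hochberg adjustment for all 19002 genes and the log2 difference, LoVo minus GP5d, was at least 1 in size. Of all genes tested, 13.3% were called, 6.12% with the higher level in LoVo and 7.20% with the higher level in GP5d. On the adjusted p alone 6 of the 10 claudins passed, 4 higher and 2 lower in LoVo, where 43.3% of all genes passed (21.5% in favour of LoVo, 21.9% in favour of GP5d). The median size of the difference was 0.39 over the 10 claudins and 0.25 over all genes. The signed medians were 0.19 and 0.05. Without LoVo replicate 3 the same 3 claudins were called. A separate test for a difference beyond 2-fold passed only CLDN2. No test was made of the claudins as a group.

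**Figure D1:**
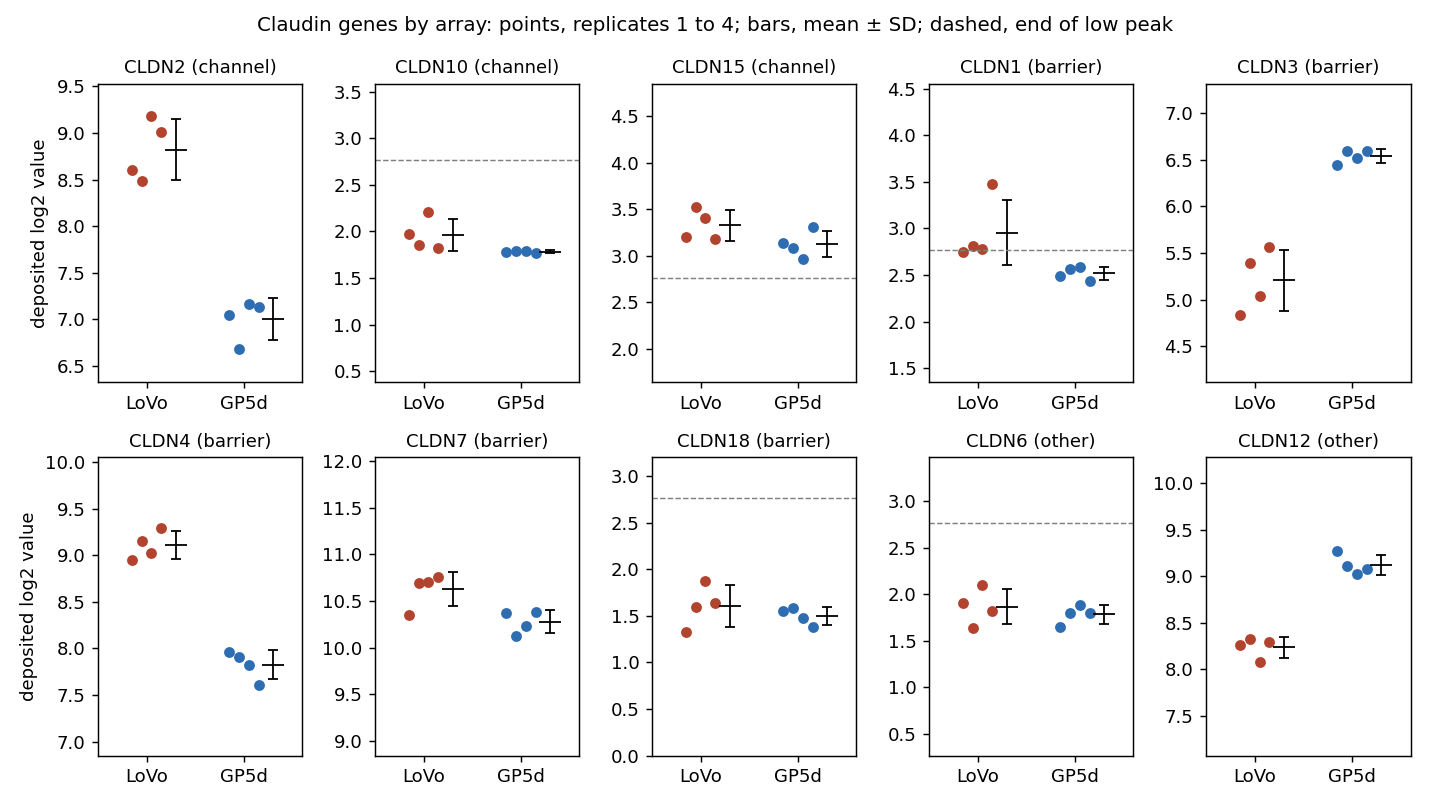
Deposited log2 values of the 10 claudin genes (vertical axes, all 3.2 log2 units tall) on the 4 LoVo and the 4 GP5d arrays, each point an array in the order of replicates 1 to 4 and each bar a mean ± SD. CLDN2 and CLDN4 lie higher on all 4 LoVo arrays, CLDN3 and CLDN12 lie lower on all 4 LoVo arrays, and CLDN6, CLDN10 and CLDN18 lie below the dashed end of the low peak (2.76).

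Of the 10 claudins, 6 lay above the range of low values treated as unreliable in both lines. Many deposited values crowd into a low peak with its mode at 1.86. Values at or below 2.76 (the mode plus 3 SDs of the values below it) were treated as having no reliable order. That range held 45.4% of all values. Its end is a convention, and detection was not tested. CLDN2, CLDN3, CLDN4, CLDN7, CLDN12 and CLDN15 were above it on all 8 arrays. CLDN6, CLDN10 and CLDN18 were within it on all 8 arrays. CLDN1 was above it on 3 of the 4 LoVo arrays and on 0 of the 4 GP5d arrays. Over all genes, 50.8% were above the low peak on the 4 LoVo arrays and 52.5% on the 4 GP5d arrays. Within it were 40.8% on the 4 LoVo arrays and 43.2% on the 4 GP5d arrays. Above it on all 8 arrays were 9095 of the 19002 genes. Of these 9095 genes 19.7% were called, with a median size of difference of 0.46. Of the 6 claudins above it on all 8 arrays 3 were called, with a median size of 1.08.

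Among the channel-forming claudins, CLDN2 was the one that passed the test. Its log2 values were 8.60, 8.49, 9.18 and 9.02 on the LoVo arrays, against 7.04, 6.68, 7.17 and 7.13 on the GP5d arrays. Every LoVo array was above every GP5d array, and the lowest LoVo value exceeded the highest GP5d value by more than the range within either line. CLDN2 averaged 8.82 ± 0.33 on the LoVo arrays and 7.01 ± 0.22 on the GP5d arrays (SD, n = 4 each). The lines differed by 1.82 on the log2 scale, with SE 0.17 and a limma adjusted p = 1.36e-05. The fold of 3.52 had a 95% interval of 2.71 to 4.58, and 95.4% of all genes differed less. It was also the claudin whose replicates scattered most in GP5d, where its SD exceeded that of 88.9% of the genes with a mean above the low peak. LoVo replicate 3 had the highest value, 0.48 above the mean of the other LoVo arrays, and without that array the difference was smaller than without any other, though still 3.24-fold.

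CLDN15, the channel claudin of the small intestine in mice, stayed close to the low peak. Its log2 values were 3.20, 3.52, 3.41 and 3.18 in LoVo and 3.14, 3.08, 2.97 and 3.31 in GP5d. The lines overlapped, and the log2 difference of 0.20 (95% interval -0.04 to 0.44) did not pass (limma adjusted p = 0.163). The interval reaches up to 1.36-fold in favour of LoVo. CLDN10, known from kidney and exocrine glands, lay within the low peak on every array, between 1.83 and 2.21 in LoVo and between 1.76 and 1.79 in GP5d. These values did not overlap, but they are in the range treated as without reliable order, so no fold is given. The test did not pass (limma adjusted p = 0.155).

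The promoters of the 4 claudins with the largest differences are shown, because they differed in opposite directions. Shown with them is 1 of CLDN7, the claudin window with the most matches to CAGGTG, a motif described below. RefSeq lists 2 starts for CLDN2 and CLDN7. Each sequence is the 250 bases before a RefSeq gene start in GRCh38.p14, read 5′ to 3′ on the strand of the gene, and capitals mark matches, on either strand, to any of 8 short motifs. The general promoter elements searched were the TATA box, written TATAA, the box that reads CCAAT, and the GC box, a site for Sp1 that reads GGGCGG. The gut factors were represented by TTTAT for the CDX family, by GTTAAT as the site of an HNF1 monomer and by AGATAA for the GATA family. The E-box that Snail binds was searched as CAGGTG, and the AP-1 site was searched as TGANTCA. CDX and HNF1 factors and Snail are known regulators of claudin genes in gut epithelium and in mesenchymal transition. Adjoining matches form 1 run of capitals.
CLDN2, upstream start, chrX:106899914-106900163, plus strand: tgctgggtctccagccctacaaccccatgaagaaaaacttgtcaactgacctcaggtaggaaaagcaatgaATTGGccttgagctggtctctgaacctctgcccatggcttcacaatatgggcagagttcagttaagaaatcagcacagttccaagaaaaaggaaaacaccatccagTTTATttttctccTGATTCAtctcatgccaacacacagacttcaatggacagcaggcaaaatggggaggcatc
CLDN2, downstream start, chrX:106918110-106918359, plus strand: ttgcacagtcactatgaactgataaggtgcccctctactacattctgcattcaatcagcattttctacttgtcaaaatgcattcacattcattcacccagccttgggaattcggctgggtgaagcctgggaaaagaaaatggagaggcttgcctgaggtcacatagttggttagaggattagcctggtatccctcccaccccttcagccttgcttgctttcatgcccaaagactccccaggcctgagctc
CLDN3, chr7:73770271-73770520, minus strand: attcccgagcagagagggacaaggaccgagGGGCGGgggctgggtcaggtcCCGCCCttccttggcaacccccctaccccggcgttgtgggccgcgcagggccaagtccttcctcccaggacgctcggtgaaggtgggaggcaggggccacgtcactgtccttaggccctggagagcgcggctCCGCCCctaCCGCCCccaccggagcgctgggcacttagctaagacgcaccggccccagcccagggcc
CLDN4, chr7:73830746-73830995, plus strand: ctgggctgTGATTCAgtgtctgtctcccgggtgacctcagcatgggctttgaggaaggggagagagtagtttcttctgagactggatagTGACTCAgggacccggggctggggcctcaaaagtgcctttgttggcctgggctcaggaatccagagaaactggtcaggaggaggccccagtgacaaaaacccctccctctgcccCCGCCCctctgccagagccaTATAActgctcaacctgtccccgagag
CLDN12, chr7:90403211-90403460, plus strand: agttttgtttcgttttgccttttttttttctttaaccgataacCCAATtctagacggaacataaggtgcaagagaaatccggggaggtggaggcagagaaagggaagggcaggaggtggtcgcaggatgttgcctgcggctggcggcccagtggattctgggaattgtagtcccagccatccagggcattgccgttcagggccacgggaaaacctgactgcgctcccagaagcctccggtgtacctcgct
CLDN7, downstream start, chr17:7262479-7262728, minus strand: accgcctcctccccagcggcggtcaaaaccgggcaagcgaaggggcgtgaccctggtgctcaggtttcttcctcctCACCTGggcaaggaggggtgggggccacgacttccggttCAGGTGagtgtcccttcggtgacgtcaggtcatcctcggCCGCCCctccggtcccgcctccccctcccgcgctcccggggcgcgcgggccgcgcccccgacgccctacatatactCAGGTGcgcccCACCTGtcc

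These promoters differ in make-up. The CLDN2 windows were poor in CpG, with 0 and 1 CpG and a GC content of 46.0% and 48.8%. The upstream one held 1 TTTAT, present in 32.7% of the 35116 promoters of the table, 1 TGANTCA (6.57%) and 1 CCAAT, present in 11240 promoters, and the downstream one held none of the 8 motifs. CLDN3 had 19 CpG and a GC content of 71.6%, with 4 GC boxes. At least as many stand in 7.63% of promoters, and at least 1 in 42.6%. CLDN4 had 4 CpG and a GC content of 58.8%. It carried TATAA (18.9% of promoters) from base -27 to base -23 counted from the start, 1 GC box and 2 TGANTCA, a number reached by 0.402% of promoters. CLDN12 had 12 CpG and only a CCAAT. The CLDN7 window held 4 CAGGTG, a number reached by 0.122% of promoters, while 17.5% hold at least 1. The window before the upstream start of CLDN7, which is not shown, held 0 CAGGTG, 1 TATAA and 1 CCAAT. Among claudins not shown, TTTAT and GTTAAT each stood in CLDN10 and CLDN18, TGANTCA in CLDN15, and CAGGTG and AGATAA in CLDN18. The 4 GC boxes, 2 TGANTCA and 4 CAGGTG are the highest counts of each motif among the 14 claudin windows. Their shares refer to any 1 promoter and do not allow for that choice. The motifs were chosen with the values known, matches of short words are frequent, and a match says nothing on whether a factor binds there in these cells. The deposited table does not tell which start is used.

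Among the sealing claudins, CLDN4 and CLDN3 moved in opposite directions. Both serve as receptors of Clostridium perfringens enterotoxin, and their genes lie side by side on chromosome 7, with 0 genes of the RefSeq table between them. CLDN4 had log2 values of 8.95, 9.16, 9.03 and 9.29 in LoVo and 7.96, 7.91, 7.82 and 7.61 in GP5d. The lines did not overlap, and the replicates of each lay within 0.36 of each other. CLDN4 averaged 9.11 ± 0.15 on the LoVo arrays and 7.83 ± 0.16 on the GP5d arrays (SD, n = 4 each). The difference was 1.28 on the log2 scale (SE 0.11, limma adjusted p = 6.46e-06), with a 95% interval of 2.06-fold to 2.87-fold.

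CLDN3 had log2 values of 4.84, 5.39, 5.04 and 5.56 in LoVo and 6.44, 6.59, 6.52 and 6.60 in GP5d. All 4 LoVo arrays were below all 4 GP5d arrays, and the LoVo arrays were spread over 0.73, against 0.15 for the GP5d arrays. CLDN3 averaged 5.21 ± 0.33 on the LoVo arrays and 6.54 ± 0.07 on the GP5d arrays (SD, n = 4 each). The difference was -1.33 on the log2 scale (SE 0.15, limma adjusted p = 4.30e-05), and its 95% interval began at -1.66 and ended at the 2-fold limit. Limma's treat, a test for a difference beyond that limit, passed CLDN2 but not CLDN3 or CLDN4, and 6.58% of all genes. The LoVo SD exceeded that of 80.9% of the genes above the low peak, and the GP5d SD that of 30.0%.

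The pair was also set against each other within each array, where a shift of the whole array cancels. The CLDN4 value minus the CLDN3 value was 4.11, 3.77, 3.99 and 3.73 on the LoVo arrays and 1.52, 1.32, 1.30 and 1.01 on the GP5d arrays. The size of such a difference on 1 array depends on the probes of the genes and has no meaning of its own. Its change between the lines compares the same probes, though probes shared by related genes were not separated out. That change was 2.61 on the log2 scale, 6.11-fold, with a mean of 3.90 ± 0.18 for the LoVo arrays and 1.29 ± 0.21 for the GP5d arrays (SD, n = 4 each). It is the sum of the sizes of the 2 differences above and shows an unequal change, not the direction of either gene. It is given without a test because the pair was picked with its values known. Within LoVo both genes put the replicates in the same order, 1, 3, 2 and 4 from low to high, and within GP5d they did not.

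**Figure D2:**
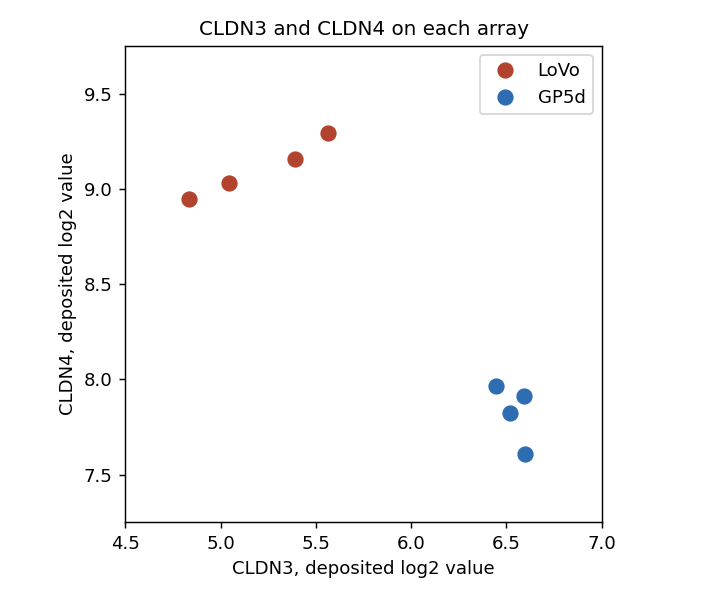
CLDN3 (horizontal) and CLDN4 (vertical) on each array, both as deposited log2 values, with an equal scale. The LoVo arrays lie at upper left (CLDN3 4.84 to 5.56, CLDN4 8.95 to 9.29) and the GP5d arrays at lower right (CLDN3 6.44 to 6.60, CLDN4 7.61 to 7.96).

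CLDN7, a partner of the adhesion protein EpCAM along the lateral membrane, differed little. Its log2 values were 10.35, 10.70, 10.70 and 10.76 in LoVo and 10.38, 10.13, 10.23 and 10.39 in GP5d. LoVo replicate 1 lay among the GP5d values and the other 3 LoVo arrays lay above them. The difference of 0.35 (SE 0.11, limma adjusted p = 0.0261), 1.27-fold, passed the test but not the 2-fold minimum, which lies above its 95% interval (0.10 to 0.59 on the log2 scale). It missed the adjusted p without LoVo replicate 2 (0.0638), LoVo replicate 4 (0.0693), GP5d replicate 2 (0.0807) or GP5d replicate 3 (0.0682). Without LoVo replicate 1 limma's adjusted p was 0.00428.

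CLDN1, without which the skin barrier of mice fails, was at the edge of measurement. Its log2 values were 2.75, 2.81, 2.78 and 3.47 in LoVo and 2.49, 2.56, 2.59 and 2.43 in GP5d. All GP5d values were within the low peak, and 3 of the LoVo values lay within 0.05 of its end, with replicate 4 above them. The difference of 0.44 (SE 0.15, limma adjusted p = 0.0421) fell to 0.26 without LoVo replicate 4, with an adjusted p of 0.0261. With all GP5d values raised to 2.76 it was 0.19, or 1.14-fold. With every low value raised to that level, LoVo values included, it did not pass (limma adjusted p = 0.583). On the deposited values it missed the adjusted p without GP5d replicate 1 (0.0899), 2 (0.0745), 3 (0.0695) or 4 (0.100). CLDN18, the claudin of stomach and lung, was within the low peak throughout, between 1.33 and 1.87 in LoVo and between 1.38 and 1.59 in GP5d, and did not pass (limma adjusted p = 0.488).

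Of the remaining claudins, CLDN12 was lower in LoVo. It has been linked to calcium uptake through the gut wall. Its log2 values were 8.26, 8.33, 8.07 and 8.30 in LoVo and 9.28, 9.11, 9.03 and 9.08 in GP5d. The lines did not overlap, and the replicates were close in both, with a range of 0.25 each. The difference was -0.88 (SE 0.09, limma adjusted p = 2.34e-05), so that GP5d was 1.85-fold higher, with a 95% interval of 1.61-fold to 2.12-fold. CLDN12 thus missed the 2-fold minimum, not the adjusted p, and 84.0% of all genes differed less. CLDN6 was within the low peak on every array, between 1.64 and 2.09 in LoVo and between 1.65 and 1.88 in GP5d, with overlapping values (limma adjusted p = 0.574).

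**Figure D3:**
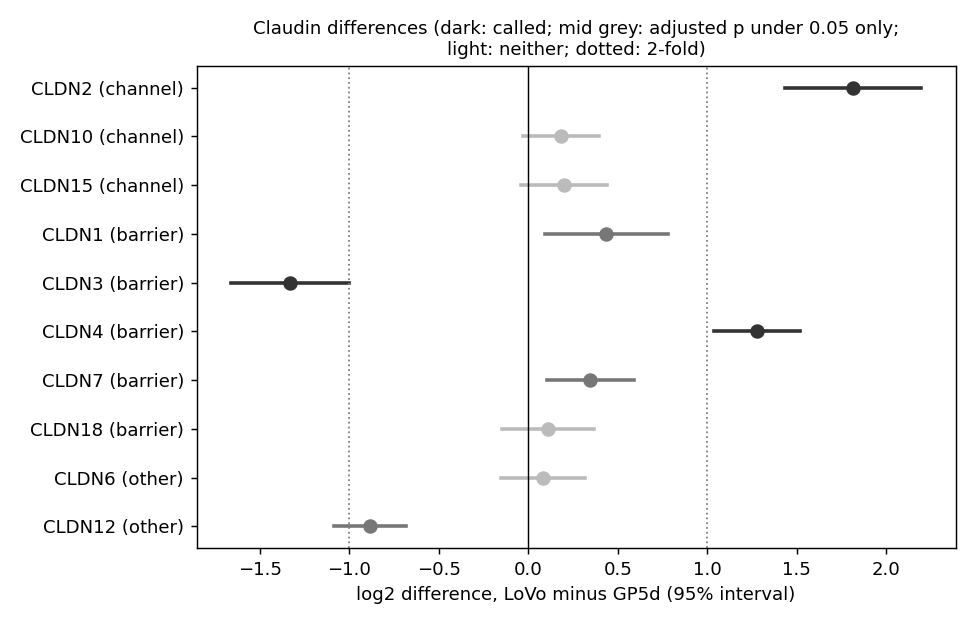
Log2 difference, LoVo minus GP5d (horizontal), with its 95% interval for each claudin. CLDN2 (1.82) and CLDN4 (1.28) lie beyond the dotted 2-fold line on the LoVo side, CLDN3 (-1.33) lies beyond it on the GP5d side, and CLDN12 (-0.88) lies just inside.

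By role, 1 of the 3 channel claudins was called, higher in LoVo. Of the 5 sealing claudins, 1 was called higher and 1 lower in LoVo, 2 passed the adjusted p below 2-fold, both higher in LoVo, and 1 did not pass. Of the 2 others, 1 passed below 2-fold, lower in LoVo. Among all genes 13.3% were called and 43.3% passed the adjusted p, and groups this small are given as counts only. The values of the 2 lines did not overlap at 6 of the 10 claudins, CLDN1, CLDN2, CLDN3, CLDN4, CLDN10 and CLDN12, and at 44.1% of all genes. For CLDN10 all of these values, and for CLDN1 those of GP5d, were in the range treated as without reliable order. Chromosome 7 carries CLDN3, CLDN4, CLDN12 and CLDN15, which include differences in either direction.

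**Figure D4:**
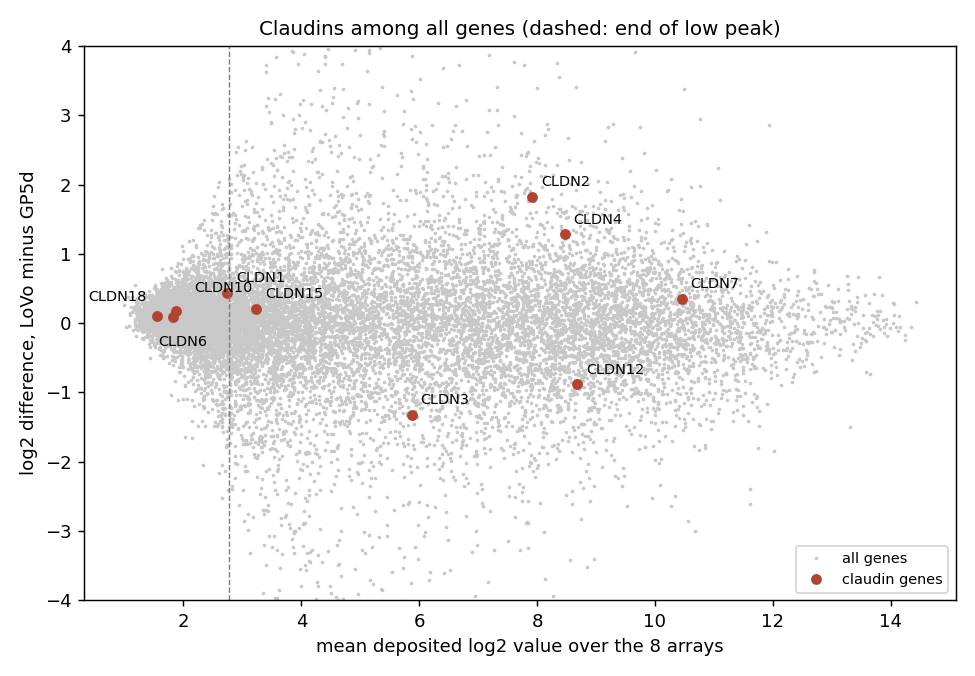
Each grey point is 1 of the 19002 genes, by its mean log2 value over the 8 arrays (horizontal) and its log2 difference, LoVo minus GP5d (vertical, cut at 4 either way, which leaves out 181 genes), with the claudins in red. CLDN2, CLDN4 and CLDN3 differ more than most genes (91.1% to 95.4% of all genes, those in the low peak included, differ less). Of the genes above the low peak on all 8 arrays, 19.7% were called. CLDN6, CLDN10 and CLDN18 lie left of the dashed end of the low peak.

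The LoVo replicates scattered more than the GP5d replicates. Among the 10497 genes with a mean above the low peak, the median SD was 0.19 in LoVo and 0.10 in GP5d, and 0.13 in LoVo without replicate 3. LoVo replicate 3 had the highest LoVo value for 4 claudins, CLDN2, CLDN6, CLDN10 and CLDN18. For all genes this share was 40.5%, and for genes that averaged below the end of the low peak, as 3 of those 4 did, it was 51.9%. LoVo replicate 4 was highest for another 4, CLDN1, CLDN3, CLDN4 and CLDN7, against 20.3% of all genes. LoVo replicate 1 was highest for none, against 21.5% of all genes. In GP5d each array was highest for 2 or 3 claudins, against 23.8% to 28.4% of all genes. The part of the array differences in these values was not tested.

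**Figure D5:**
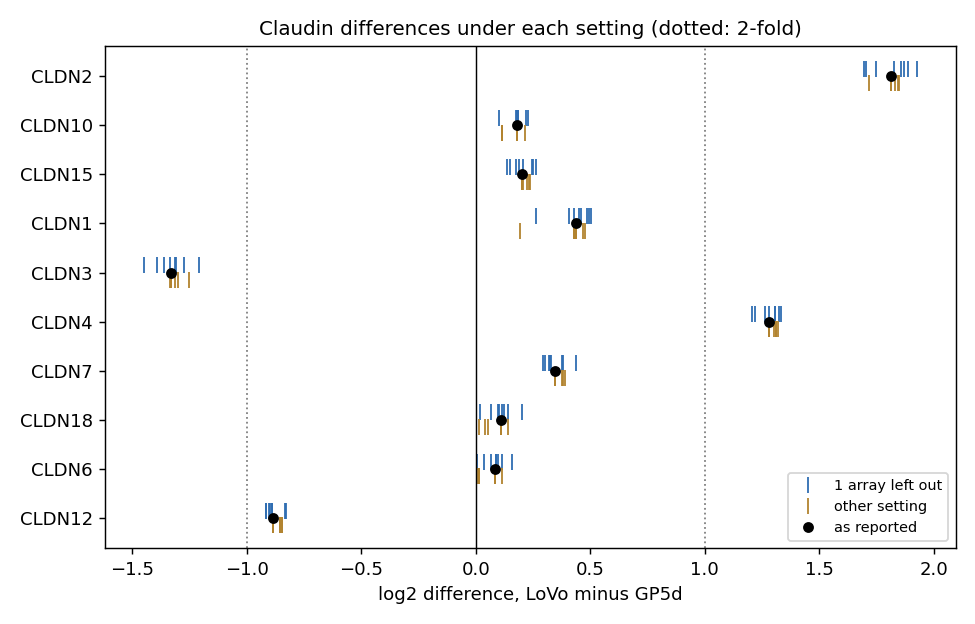
Log2 difference, LoVo minus GP5d (horizontal), of each claudin as reported (black) and under up to 17 other settings (ticks: 1 array left out above, all others below). CLDN2, CLDN3 and CLDN4 stay beyond the dotted 2-fold lines throughout, CLDN12 stays between -0.92 and -0.83, and CLDN1 moves between 0.19 and 0.50. The variance prior, block, treat and filter settings cannot move a difference, nor can the floor for genes above the low peak.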

How the data were processed

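Total RNA of LoVo and GP5d (4 biological replicates each) was measured on Affymetrix arrays, per the labels' protocols. The authors deposited 1 table of log2 values, 1 row per Ensembl gene ID. RMA and GCRMA are named without a role, per the submitters' processing notes. The sources used here do not give the array type, gene grouping version or scan dates. The base of the logarithm was settled from the values (0.472 to 14.7), genes were not centred, and no further scaling was applied. The number of arrays limits the precision (median SE of a difference 0.11). The labels give no batch, so any batch that follows the line cannot be told apart from it. Replicates of 1 line measure the spread between cultures of that line.

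The comparison used limma 3.58.1 under R 4.3.3 (line as the only factor, 6 residual degrees of freedom), tested on simulated data. Members and lists were chosen with earlier results of these data known. All 10 claudins were named, with their symbols paired to IDs when they were chosen. The table has no symbols, and 0 of the 59792 genes in the RefSeq table (GRCh38.p14) carried an Ensembl ID, so the other tight junction lists, the marker lists and protein features were not run. Promoters (RefSeq, GRCh38.p14) matched 10 of 10 symbols. Related genes can share probes, which was not separated out. Alternatives were other normalizations, a filter, a floor, other variance settings, a replicate block, left-out arrays and other thresholds. Plots used matplotlib 3.10.9.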

Additional observations from a re-analysis of the deposited data

Results flagged for a closer look

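In 20 comparisons, 1 for the 4 arrays of each line at each claudin, 2 pointed to an array far from the other 3 (Dixon's test, gap over range above its 95% critical value). Chance gives about 1 in 20. For CLDN1 in LoVo the ratio was 0.917, with replicate 4 at 3.47 and the other LoVo arrays at 2.75 to 2.81. For CLDN7 in LoVo it was 0.858, with replicate 1 at 10.35 and the others at 10.70 to 10.76. These 2 claudins are also those whose adjusted p depended on which arrays were used. Leaving out the flagged array lowered limma's adjusted p, to 0.0261 for CLDN1 and 0.00428 for CLDN7. The misses came with other arrays left out. Neither flag fell on LoVo replicate 3.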

How the results depend on the processing

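The count of 3 called claudins, and the genes themselves (CLDN2, CLDN3 and CLDN4), stayed under 8 alternatives that changed the normalization, filter, floor, variance settings or block, and it was 3 to 3 with 1 array left out. It was 6 with no minimum difference, which added CLDN1, CLDN7 and CLDN12. It was 0 by limma with a minimum log2 difference of 2, since the largest was 1.82 (6 claudins had an unadjusted p under 0.05). Tested by treat for a difference beyond 2-fold, 1 was called, CLDN2 (adjusted p = 0.00752), with 0.293 for CLDN3 and 0.172 for CLDN4. No claudin changed sign under any alternative that gave it a value. The variance prior, replicate block, treat and filter cannot change a difference, nor can the floor for genes above the low peak. For CLDN6, CLDN10 and CLDN18 the sign rests on values without reliable order. These 3 had no value with dim genes left out or with low values raised, and CLDN1 had none with dim genes left out. CLDN1 kept an adjusted p under 0.05 in 8 of 15 alternatives (0.0143 to 0.583) and CLDN7 in 10 of 16 (0.00428 to 0.0807), treat aside. The claudins above the low peak numbered 6 in LoVo and 6 in GP5d, 7 and 6 with its end at 2 SDs, and 6 and 5 at 4 SDs. Replicate numbers did not pair the arrays of the lines (correlations of deviations -0.03 to 0.05). The replicate block left 3 claudins called, with an adjusted p of 0.0597 for CLDN1 and 0.0517 for CLDN7. The alternatives for gene lists could not be run without symbols for the other IDs.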
